A study of Canis lupus familiaris with 18 samples.

Results

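The comparison set the right atrium (RA) against the right ventricle (RV) of control dogs. It rests on the 3 arrays titled as control RA and the 3 titled as control RV, 6 of the 18 Affymetrix Canine_2 arrays in the series. The other 12 arrays came from dogs in which heart failure (HF) was made by continuous rapid ventricular pacing, with 3 RA and 3 RV arrays at 2 weeks (early HF) and 3 and 3 at 5 weeks (late HF). All dogs were adult mongrels or beagles, and the labels do not give the breed, sex or number of the animals behind an array, nor any treatment of the controls. Each array measured total RNA of a small frozen piece of 1 chamber, so the values are averages over all its cells. In such bulk tissue, fewer cells of a type and less RNA per cell cannot be told apart. The labels call the replicates biological but name no animal, so the p-values speak only for the spread seen between these pieces of tissue, which may be partly technical.

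Atrial and ventricular muscle are built on the same contractile plan with different parts. Myosin carries an essential and a regulatory light chain, and each chamber uses its own genes for both: MYL4 and MYL7 in the atrium, MYL3 and MYL2 in the ventricle. Atrial myocytes are also secretory cells that store and release natriuretic peptides, and their junctions hold connexin 40, the product of GJA5. Ventricular myocytes pump against a higher load and draw most of their energy from fatty acids. The atrial identity is held by the nuclear receptors NR2F1 and NR2F2, and Iroquois factors (IRX genes) pattern the ventricle.

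Values are log2 signals per probe set, and differences are RA minus RV on the log2 scale with the standard error (SE) of the limma fit and n = 3 arrays per chamber. Of the genes with a single symbol, 10988 passed a filter on low signal, each represented by its brightest probe set. The threshold was an adjusted p of 0.05 (Benjamini-Hochberg over 25752 probe sets). The fit used all 18 arrays to estimate the spread, and among them the library labelled RA late HF 3 stood apart: its MYL2 signal was 14.17 and its MYL3 signal 13.89, while the other RA late HF arrays lay at 10.59 and 10.99 for MYL2 and at 8.81 and 9.22 for MYL3. That library enters no control or early HF mean, and counts are also given for the fit without it. It did enter the mean over all 18 arrays that set the filter and chose the brightest probe set. The fit without it kept those probe sets. The gap between 3' and 5' signal, used as a measure of RNA quality, had a higher mean in the control RA arrays. For EF1A it was 9.28 to 9.58 in the control RA arrays against 8.01 to 8.28 in the RV arrays. For actin it was 2.54 to 3.09 against 2.09 to 2.58, and for GAPDH 1.15 to 1.61 against 1.05 to 1.25. The chambers overlapped for actin, though barely, and for GAPDH, and did not for EF1A. Whether the EF1A gap follows RNA quality or the level of EF1A was not tested. The part of these gaps in the results was not tested either.

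Of 10988 genes, 296 (2.69%) differed between the control chambers, 178 (1.62%) higher in RA and 118 (1.07%) lower. Without the library labelled RA late HF 3 there were 590 (5.37%), 358 (3.26%) higher and 232 (2.11%) lower, among them all 296. The 6 control arrays alone gave 878 (7.99%), 528 (4.81%) higher and 350 (3.19%) lower. With the chamber pairs, arrays of RA and RV with the same replicate number, as a block, 228 (2.07%) passed, 129 (1.17%) higher and 99 (0.901%) lower. Over all 25752 probe sets, 748 (2.9%) passed, 436 (1.69%) higher and 312 (1.21%) lower. In all 296 genes the 3 RA arrays did not overlap the 3 RV arrays, which held for 27.3% of all genes (12.8% with RA above and 14.5% with RA below). Of the 296 genes, 171 had another probe set that was tested, and for 76 of them at least 1 other was called in the same direction and for 0 in the opposite one. The median difference was 0.87 among the genes higher in RA and -0.96 among those lower. Differences above 2 were found in 22 genes higher in RA and 15 lower in RA. The median over all genes was -0.02. With 1 of the 6 control arrays left out at a time, between 96 genes (without RV control 2) and 170 genes (without RA control 1) passed, and 45 of the 178 and 33 of the 118 passed in all 6 refits. All 6 refits kept the library labelled RA late HF 3 in the shared spread, so a lost call reflects that spread as well as the array left out. How many of these 6 refits kept a call is given below for each gene, with RA 1 to RA 3 and RV 1 to RV 3 standing for the control array left out. After such a count, "without" names the refits that kept the call and "failing without" those that lost it. A gene that passed and has no such count beside it passed in all 6. Known markers of atrial and ventricular myocytes were set beside the labels. The lists were chosen with earlier results of these data known, so the counts are no independent check of the labels. Of 13 atrial markers, 7 passed as higher in RA and 0 as lower. Of 18 ventricular ones, 6 passed as lower and 0 as higher. The atrial count was 5 or 6 whichever control array was left out, and the ventricular count fell to 3 without RV 1 or without RV 3.

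**Figure D1:**
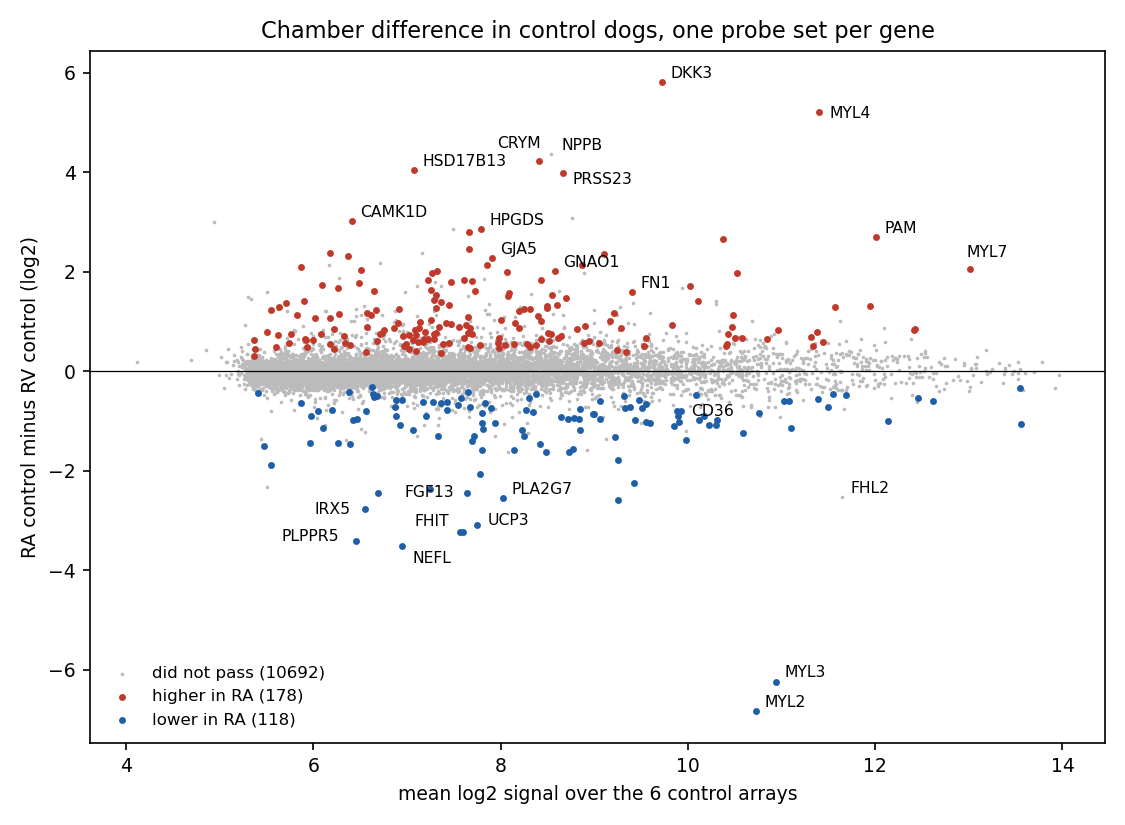
Difference between the control chambers (RA minus RV, log2, vertical axis) against the mean log2 signal over the 6 control arrays (horizontal axis) for 10988 genes, 1 point per gene. Red points are the 178 genes higher in RA and blue points the 118 lower. The myosin light chains MYL2 and MYL3 lie farthest below 0 and DKK3 and MYL4 farthest above it. NPPB and FHL2 are in gray because the probe sets shown did not pass.

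The ventricular myosin light chains MYL2 and MYL3 had the largest differences of all genes tested. MYL2, the ventricular regulatory chain, read 6.51, 6.04 and 9.38 in the RA arrays and 14.13, 14.17 and 14.16 in the RV arrays. RA control 3 thus carried more MYL2 signal than the other RA arrays and still lay far below every RV array. The difference was -6.84 (SE 0.87, adjusted p = 0.000735), a 115-fold ratio. MYL3, the ventricular essential chain, read 7.59, 7.91 and 7.97 in RA and 14.15, 14.02 and 14.02 in RV, with the 3 arrays of each chamber close together. Its difference was -6.24 (SE 0.89, adjusted p = 0.00134), or 75.6-fold.

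The atrial chains ran the other way. MYL4, the atrial essential chain, read 14.02, 14.03 and 13.98 in RA and 8.10, 7.89 and 10.39 in RV, where RV control 3 stood above the other RV arrays. It was higher in RA by 5.22 (SE 0.85, adjusted p = 0.00317), or 37.2-fold. MYL7, the atrial regulatory chain, read 14.01, 14.03 and 14.08 in RA and 12.31, 11.97 and 11.70 in RV, so that it was bright in both chambers. It was higher in RA by 2.05 (SE 0.39, adjusted p = 0.00906), or 4.13-fold. All 4 chains passed in all 6 refits. Their bright values lie near the top of these arrays (14.49), where signal may no longer follow RNA, and the ratios may be too small.

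Of 15 thick filament genes tested, 4 were higher in RA and 2 lower at the brightest probe set. The 6 genes are MYL2, MYL3, MYL4, MYL7, MYL9 and MYL6. Other probe sets of the listed genes, some of them called, are not part of this count. MYL9, a regulatory light chain of smooth muscle and non-muscle myosin, read 11.43, 11.64 and 11.47 in RA and 9.88, 9.22 and 9.49 in RV (difference 1.98, SE 0.26, adjusted p = 0.000773). MYL6, the essential chain of those myosins, was higher by 0.82 (SE 0.16, adjusted p = 0.00968; 5 of 6 refits, failing without RV 2) and is named to complete the count, after its values were seen. Of 12 thin filament genes, 2 were lower in RA and 0 higher. ACTA1, the skeletal form of sarcomeric actin, read 12.91, 12.64 and 13.52 in RA and 14.15, 14.02 and 14.10 in RV (-1.07, SE 0.16, adjusted p = 0.00185). TNNC1, the calcium-binding troponin subunit, was lower by a small amount (-0.34, SE 0.07, adjusted p = 0.0180; 1 of 6 refits, without RA 3, and 0.0515 with the chamber pairs as a block). ACTC1, cardiac actin, did not pass at 0.19.

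At the Z-disc, where thin filaments anchor, 2 of 29 genes were higher in RA and 1 lower. The calsarcins, which tie calcineurin to the Z-disc, went in opposite directions. MYOZ2 was lower in RA in every array, at 12.41, 12.27 and 12.28 against 12.93, 12.95 and 12.87 (-0.60, SE 0.09, adjusted p = 0.00225, passing in all 6 refits). MYOZ1 was higher, at 9.43, 9.48 and 9.06 against 7.16, 7.92 and 8.27 (1.54, SE 0.35, adjusted p = 0.0250). The MYOZ1 call was the less stable: it held in 1 of 6 refits, without RV 3, reached 0.114 without RV control 1 and was 0.0524 with the pairs as a block. PDLIM1, a Z-disc adaptor protein, was higher in RA by 0.67 (SE 0.14, adjusted p = 0.0134; 3 of 6 refits, failing without RA 3, RV 1 or RV 2, 0.0882 without RA 3). FHL2, a LIM protein of the sarcomere, had a large difference that did not pass, with 10.76, 9.74 and 10.65 in RA and 13.10, 12.72 and 12.93 in RV (-2.53, adjusted p = 0.0551). Without the library labelled RA late HF 3 its adjusted p was 0.00283. The second FHL2 probe set, at -2.74, was called with all arrays (adjusted p = 0.04). LRRC39, a protein of the myosin M-band, was lower in RA at 8.28, 8.05 and 8.59 against 10.62, 10.49 and 10.52 (-2.24, SE 0.37, adjusted p = 0.00356).

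**Figure D2:**
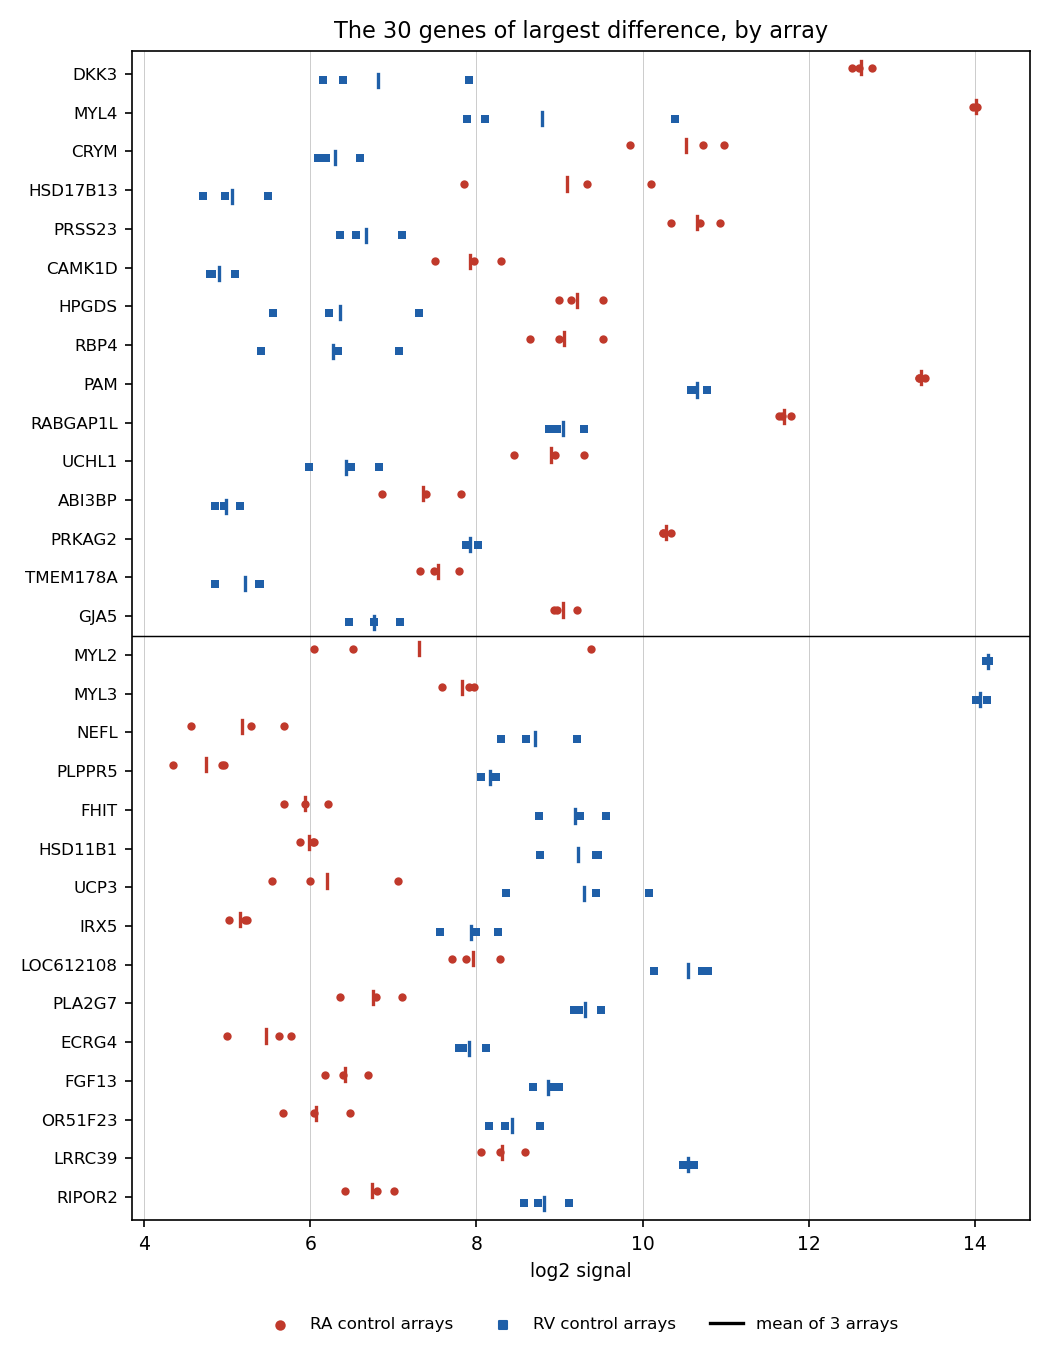
Log2 signal (horizontal axis) of the 15 genes with the largest difference in each direction, higher in RA above the line and lower below it. Red circles are the 3 RA control arrays, blue squares the 3 RV control arrays and vertical bars the means of 3; no gene has overlapping chambers, and MYL2 in RA and MYL4 in RV each have 1 array, at 9.38 and 10.39, apart from the other 2.

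Among genes outside the sarcomere, DKK3 had the largest difference. This secreted protein of the Dickkopf family read 12.52, 12.60 and 12.76 in RA and 6.39, 6.16 and 7.91 in RV. It was higher by 5.81 (SE 0.64, adjusted p = 0.000198), or 56.0-fold, and its highest p in the 6 refits was 0.00278. Its second probe set was called at 1.87. It was the 1 gene of 18 in the list of Wnt signalling that passed. FRZB, a secreted Wnt antagonist, read 7.76, 7.69 and 7.88 against 6.83, 5.76 and 5.95 and did not pass (1.6, adjusted p = 0.182).

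Of 22 genes of secreted peptides and their processing, 3 passed as higher in RA (1.62% of all genes) and 0 as lower. Without the library labelled RA late HF 3, 6 were higher (3.26% of all genes). PAM, which amidates the ends of secreted peptides and is a major membrane protein of atrial granules, read 13.33, 13.33 and 13.40 in RA and 10.78, 10.62 and 10.58 in RV (2.69, SE 0.42, adjusted p = 0.00242). All 4 of its other probe sets were called in the same direction. NPR3, the receptor that clears natriuretic peptides, read 8.07, 8.81 and 8.69 against 6.68, 6.57 and 6.81 (1.84, SE 0.22, adjusted p = 0.000469). SCG5, a granule protein that chaperones a prohormone convertase, read 8.76, 8.79 and 9.07 against 7.23, 7.35 and 7.33 (1.57, SE 0.37, adjusted p = 0.0303). The arrays of SCG5 were tightly grouped in both chambers, yet it passed in 0 of 6 refits (0.129 without RA 3) and had an adjusted p of 0.0709 with the pairs as a block. Without the library labelled RA late HF 3 its SE was 0.19 and its adjusted p 5.07e-05. The second SCG5 probe set was called at 0.89.

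NPPB, which encodes B-type natriuretic peptide, read 8.59, 11.21 and 12.38 in the RA arrays and 6.39, 6.30 and 6.38 in the RV arrays. The RV arrays were alike and the RA arrays spread widely, and every RA array lay above every RV array. The difference of 4.37 (SE 1.29) did not pass (adjusted p = 0.0829; 0.00869 without the library labelled RA late HF 3). NPPA, the gene of atrial natriuretic peptide, had no probe set with its symbol alone and is not analysed here.

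At the junctions between myocytes, GJA5 (connexin 40) read 8.97, 8.94 and 9.21 in RA and 6.77, 6.47 and 7.08 in RV. It was higher by 2.27 (SE 0.17, adjusted p = 1.12e-05), or 4.81-fold, with a highest p of 0.000143 in the refits. Its other probe sets were also called, with smaller differences of 0.45 and 0.66. GJA1 (connexin 43) read 7.97, 7.94 and 8.05 against 8.06, 8.22 and 8.28 and did not pass (-0.20, adjusted p = 0.528). Of 24 genes listed for gap junctions and the intercalated disc, 3 were higher in RA and 1 lower, and 1 was higher without RA 2, RA 3, RV 2 or RV 3. CXADR, the coxsackie and adenovirus receptor of the disc, was higher at 8.89, 9.03 and 9.07 against 8.34, 8.37 and 8.19 (0.70, SE 0.15, adjusted p = 0.0152; 2 of 6 refits, without RA 1 or RV 1). Its other probe sets, at 0.28 and 0.46, did not pass. LMNA, which encodes A-type nuclear lamins, was higher by 0.49 (adjusted p = 0.0391; 0 of 6 refits and 0.0820 with the pairs as a block). The second LMNA probe set was at 0.08. LMO7, a LIM-domain protein of cell junctions, was lower at 8.38, 8.82 and 8.50 against 9.49, 9.55 and 9.26 (-0.87, SE 0.20, adjusted p = 0.0266; 2 of 6 refits, without RA 2 or RV 3). Of its 4 other probe sets, 1 was called, at -0.86, and the rest lay between -0.58 and 0.00.

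Few ion channel genes passed. Of 16 potassium channel genes, 1 was higher in RA and 1 lower, and both belong to ATP-sensitive channels. KCNJ8, the pore subunit Kir6.1, read 8.75, 8.75 and 8.19 in RA and 10.12, 9.82 and 9.71 in RV (-1.32, SE 0.28, adjusted p = 0.0153; 3 of 6 refits, failing without RA 3, RV 1 or RV 2, 0.0945 without RA 3). KCNJ8 also marks pericytes, and it was the 1 gene of 14 in the list of smooth muscle and pericyte markers that passed. ABCC8, the regulatory subunit SUR1, read 6.11, 6.38 and 6.04 against 5.78, 5.67 and 5.61 (0.49, SE 0.13, adjusted p = 0.0482; 0 of 6 refits, 0.0766 with the pairs as a block). ABCC9, the regulatory subunit SUR2, did not pass at -0.54 (adjusted p = 0.0597).

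Other channels of the cardiac action potential showed no difference that passed. KCNA5, the ultrarapid potassium channel, was at -0.22 (adjusted p = 0.306), KCND3 at -0.26, KCNH2 at -0.16, KCNQ1 at 0.00 and CACNA1C at -0.17. KCNIP2, a subunit of the transient outward channel, read 11.04, 10.71 and 10.44 against 11.24, 10.76 and 10.67 and its chambers overlapped (-0.16, adjusted p = 0.907). KCNJ3, a subunit of the acetylcholine-gated potassium channel, fell below the signal filter, at 5.00, 5.71 and 5.09 against 4.83, 4.79 and 5.06. DPP6, which modulates transient outward channels, also fell below it and read 4.09, 3.98 and 4.59 in RA and 6.58, 6.04 and 5.35 in RV. In the fit without a filter its difference was -1.77 (SE 0.39, adjusted p = 0.0265); it was singled out after its values were seen.

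Among 13 sodium, calcium and pacemaker channel genes, 1 was higher in RA and 1 lower. FGF13, an intracellular protein that modulates sodium channels, read 6.40, 6.18 and 6.69 in RA and 8.99, 8.68 and 8.93 in RV (-2.44, SE 0.39, adjusted p = 0.00276, passing in all 6 refits). The second FGF13 probe set was at -0.33 and did not pass. CACNA2D3, an auxiliary calcium channel subunit, read 7.15, 7.30 and 7.93 against 5.90, 5.83 and 5.79 (1.62, SE 0.38, adjusted p = 0.0297; 1 of 6 refits, without RA 1, 0.0692 with the pairs as a block).

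The best known genes of the calcium cycle of contraction did not pass. ATP2A2, the sarcoplasmic reticulum calcium pump, read 13.53, 13.46 and 13.47 in RA and 13.51, 13.46 and 13.47 in RV (0.01, SE 0.15). Its inhibitor PLN was at -0.17 and the release channel RYR2 at -0.14, and neither passed. Of 26 calcium handling genes 1 passed, CAMK1D, a calcium and calmodulin-dependent kinase, at 7.5, 8.30 and 7.97 in RA and 4.79, 4.82 and 5.10 in RV (3.02, SE 0.50, adjusted p = 0.00346). The RV mean of CAMK1D lay below the filter limit of 5.31, near background, and its difference may be a lower bound. GNAO1, the alpha subunit of the G protein Go, was the 1 of 21 genes of adrenergic, muscarinic, adenosine and angiotensin signalling that passed, at 9.56, 9.73 and 9.47 against 7.91, 7.43 and 7.37 (2.02, SE 0.33, adjusted p = 0.00338). PDE3A, a cyclic nucleotide phosphodiesterase, read 7.08, 7.34 and 7.17 against 8.25, 7.95 and 8.19 and did not pass (-0.93, adjusted p = 0.0573; 0.00156 without the library labelled RA late HF 3).

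Of 31 chamber and cardiac transcription factors, 2 were higher in RA and 2 lower, with 1 and 1 left when the pairs were a block, and 0 or 1 each way whichever control array was left out. NR2F2 (COUP-TFII) read 7.17, 7.45 and 7.24 in RA and 6.19, 5.92 and 6.03 in RV (1.24, SE 0.31, adjusted p = 0.0400; 0 of 6 refits and 0.0833 with the pairs as a block). The second NR2F2 probe set was called at 1.74 (adjusted p = 0.0118). NR2F1 (COUP-TFI) read 8.11, 7.25 and 7.74 against 6.94, 6.93 and 6.92 (0.77, SE 0.16, adjusted p = 0.0154; 1 of 6 refits, without RA 2). The second NR2F1 probe set was called at 3.56. IRX5 was near background in RA at 5.02, 5.22 and 5.24, and read 8.0, 7.56 and 8.26 in RV (-2.78, SE 0.56, adjusted p = 0.0123; 4 of 6 refits, failing without RV 1 or RV 3). The second IRX5 probe set was at -0.09 and did not pass. IRX3 read 7.52, 7.51 and 7.53 against 8.37, 8.07 and 8.38 (-0.75, SE 0.19, adjusted p = 0.0384; 0 of 6 refits and 0.0873 with the pairs as a block). IRX4 read 5.27, 5.28 and 5.29 against 5.47, 5.44 and 5.31, close to background in both chambers, and did not pass. HAND2 did not pass at 0.08, and TBX5 fell below the filter. MEIS2, a homeobox cofactor, was at -1.05 and did not pass with all arrays (adjusted p = 0.111). It passed without the library labelled RA late HF 3 (adjusted p = 0.00362) and with the 6 control arrays alone (adjusted p = 0.00838).

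Of 15 genes of steroid and thyroid hormone handling, 2 were higher in RA and 1 lower (median -0.09), with 1 higher without RA 3, RV 1 or RV 2 and 0 lower whichever control array was left out. Of 18 genes of retinoid and retinol metabolism, 2 were higher and 1 lower (median 0.01); 0 were higher without RA 3, RV 1 or RV 2, 1 was higher without RA 1, RA 2 or RV 3, and 0 were lower without RA 1, RA 2, RV 1 or RV 2. With the pairs as a block, 2 were higher and 2 lower in the former list and 1 and 1 in the latter. CRYM, which binds thyroid hormone in the cytosol, read 10.73, 10.98 and 9.85 in RA and 6.60, 6.19 and 6.09 in RV (4.23, SE 0.52, adjusted p = 0.000598), or 18.7-fold. HSD17B13, a lipid droplet enzyme that acts on retinol, read 9.33, 7.85 and 10.10 in RA, a wide spread, and 4.97, 4.71 and 5.49 in RV, near background (4.04, SE 0.81, adjusted p = 0.0123; 3 of 6 refits, failing without RA 3, RV 1 or RV 2, 0.0792 without RA 3). HSD11B1, which regenerates active glucocorticoid, was lower in RA at 5.88, 6.03 and 6.04 against 9.46, 8.77 and 9.44 (-3.24, SE 0.78, adjusted p = 0.0343). Despite that gap it passed in 0 of 6 refits (0.112 without RA 3). Its adjusted p was 0.0166 without the library labelled RA late HF 3 and 9.6e-06 with the 6 control arrays alone. The second HSD11B1 probe set was called at -3.81. RXRG, a retinoid X receptor, was lower at 6.72, 6.52 and 7.0 against 8.11, 7.51 and 7.33 (-0.90, SE 0.20, adjusted p = 0.0234; 2 of 6 refits, without RA 3 or RV 3).

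Of 24 genes of prostaglandin and lipid mediators, 1 was higher in RA and 2 lower. HPGDS, a prostaglandin D synthase, read 8.99, 9.52 and 9.14 in RA and 5.55, 6.23 and 7.31 in RV, with the RV arrays well apart from each other (2.85, SE 0.44, adjusted p = 0.00206). HPGDS is also a mast cell marker, and none of the other 10 lymphocyte and mast cell markers tested passed, with MS4A2 at -0.22 and HDC at 0.11. PLA2G7, a phospholipase that degrades platelet-activating factor, read 6.36, 7.11 and 6.79 against 9.24, 9.50 and 9.18 (-2.55, SE 0.41, adjusted p = 0.00292). PTGER4, a receptor of prostaglandin E2, was lower by 0.98 in RA (SE 0.21, adjusted p = 0.0166; 2 of 6 refits, without RA 3 or RV 2).

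Of 33 genes of fatty acid uptake and oxidation, 6 were lower in RA and 0 higher (1.07% of all genes were lower), and 8 were lower without the library labelled RA late HF 3. The list's median was -0.37 against -0.02 over all genes, and in 18 of 33 every RA array lay below every RV array (14.5% of all genes). The count of lower genes was 4 without RA 1, 3 without RA 2 or RV 3, 2 without RA 3 and 1 without RV 1 or RV 2. CD36, the fatty acid transporter of the cell surface, read 9.46, 9.43 and 9.27 in RA and 10.59, 10.48 and 10.18 in RV (-1.03, SE 0.17, adjusted p = 0.00413), or 2.04-fold lower, and was the 1 gene of the 6 to pass in all refits.

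The other 5 genes lie further along the same route. FABP3, which carries fatty acids in the cytosol, read 11.30, 11.65 and 11.95 against 12.81, 12.62 and 12.48 (-1.0, SE 0.24, adjusted p = 0.0337; 1 of 6 refits, without RA 3 and 0.0557 with the pairs as a block). MLYCD, which removes the malonyl-CoA that restrains fatty acid import into mitochondria, read 9.82, 9.87 and 9.21 against 10.86, 10.71 and 10.27 (-0.98, SE 0.19, adjusted p = 0.00966; 3 of 6 refits, failing without RA 3, RV 1 or RV 2). ETFB and ETFDH, which pass electrons from fatty acid oxidation to the respiratory chain, were lower by 0.91 and 0.84 in RA (adjusted p = 0.0252 and 0.0287; 1 of 6 refits each, without RA 2 and without RA 1). UCP3, a mitochondrial carrier induced by fatty acids, differed most, with 7.06, 6.00 and 5.54 in RA and 10.08, 9.44 and 8.36 in RV (-3.09, SE 0.71, adjusted p = 0.0264; 2 of 6 refits, without RA 1 or RV 3, 0.129 without RA 3).

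Downstream of these, 3 of 26 genes of the citric acid cycle, creatine and ketone metabolism were lower in RA (1.07% of all genes). None was higher, and the median was -0.25. Whichever control array was left out, 1 was lower. SUCLA2, a subunit of succinyl-CoA synthetase, read 9.81, 10.01 and 9.62 against 10.81, 10.97 and 10.64 (-0.99, SE 0.15, adjusted p = 0.00210) and alone held in all 6 refits. BDH1, which oxidises the ketone body hydroxybutyrate, read 7.03, 7.33 and 7.48 against 8.32, 8.30 and 8.34 (-1.04, SE 0.24, adjusted p = 0.0298; 0 of 6 refits and 0.0715 with the pairs as a block). Other BDH1 probe sets were called at -0.81 and -0.63, and the one at -0.6 was not. VDAC1, a channel of the outer mitochondrial membrane, was lower by 0.53 in RA (adjusted p = 0.0450; 0 of 6 refits, 0.0587 with the pairs as a block), and its second probe set was at 0.08. Of 54 genes of oxidative phosphorylation, 0 passed with all arrays and 4 were lower without the library labelled RA late HF 3. Their median was -0.14, and 6 of 54 had a positive difference, against 44.6% of all genes.

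In sugar metabolism, 1 of 34 genes was higher in RA and 1 lower. GBE1, the glycogen branching enzyme, read 6.29, 6.63 and 6.23 against 7.37, 7.70 and 7.32 (-1.08, SE 0.21, adjusted p = 0.0102; 4 of 6 refits, failing without RA 3 or RV 2). PGAM1, the broadly expressed phosphoglycerate mutase of glycolysis, read 11.64, 11.77 and 11.79 against 11.32, 11.11 and 11.04 (0.58, SE 0.12, adjusted p = 0.0154; 2 of 6 refits, without RA 1 or RV 1). ENO1 and ENO3, the general and the muscle enolase, had opposite differences that did not pass, at 0.63 and -0.77. PRKAG2, a regulatory subunit of the energy sensor AMPK, was higher at 10.25, 10.25 and 10.34 against 8.02, 7.87 and 7.89 (2.35, SE 0.32, adjusted p = 0.00105). Of its 5 other probe sets, 2 were called higher in RA and 4 had the same direction.

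**Figure D3:**
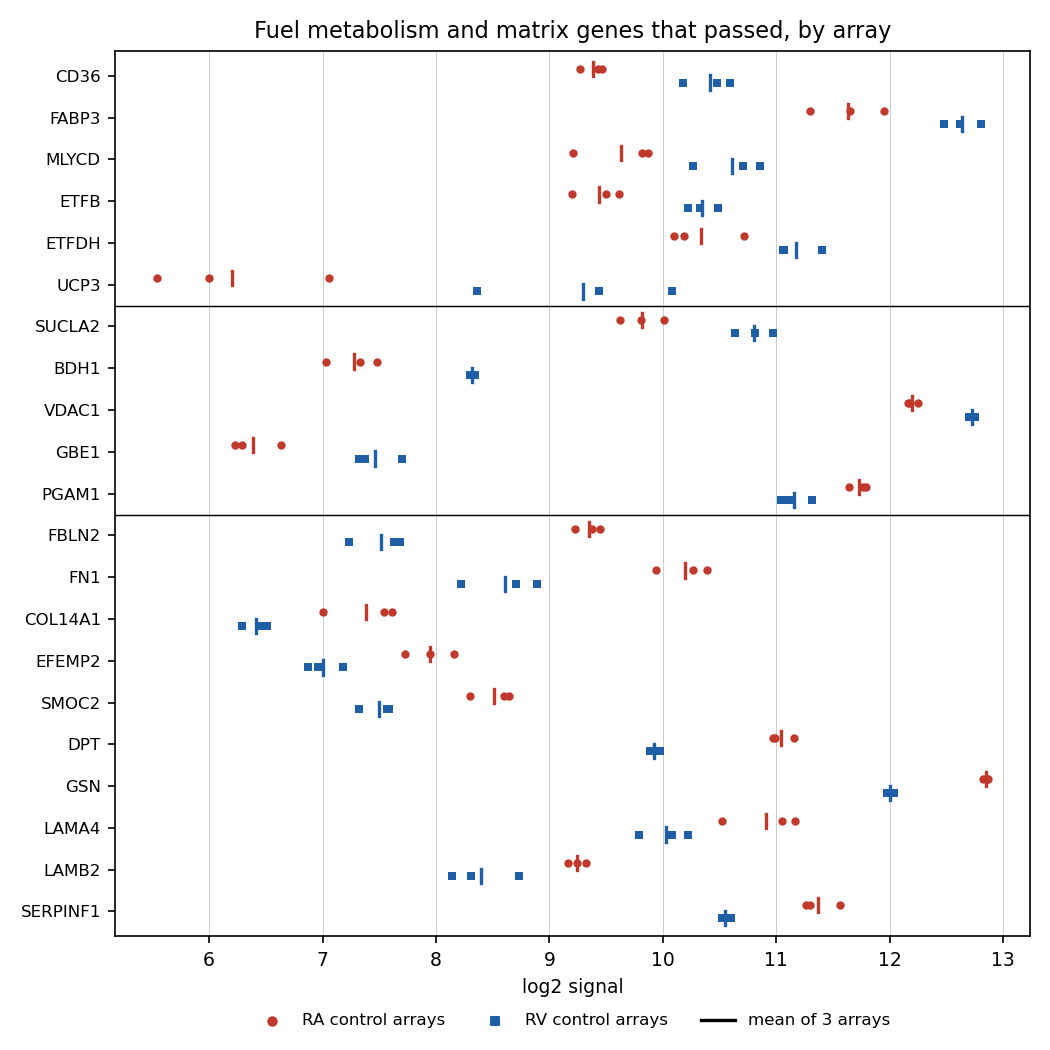
Log2 signal (horizontal axis) by array of the genes that passed in fatty acid use (top block), other fuel metabolism (middle block) and matrix, fibroblast and protease lists (bottom block; PRSS23 is plotted with the largest differences). Red circles are the 3 RA control arrays, blue squares the 3 RV control arrays and vertical bars the means of 3; RA lies to the left in the top block, and to the right throughout the bottom block.

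Of 45 genes of fibrillar collagen and matrix, 4 passed as higher in RA (1.62% of all genes) and 0 as lower. Without the library labelled RA late HF 3, 14 were higher (3.26% of all genes). In 27 of 45 every RA array lay above every RV array (12.8% of all genes), and the median was 0.43. Whichever of the 6 control arrays was left out, 1 or 2 were higher. FBLN2, a matrix protein that binds elastic fibres, read 9.45, 9.23 and 9.38 against 7.68, 7.23 and 7.63 (1.84, SE 0.32, adjusted p = 0.00503) and was the 1 gene of the 4 to hold in all 6 refits. Its second probe set was at 0.31 and did not pass. FN1, fibronectin, read 10.39, 9.94 and 10.27 against 8.71, 8.22 and 8.89 (1.59, SE 0.37, adjusted p = 0.0294; 0 of 6 refits, 0.152 without RV 2). The other FN1 probe sets, at 0.02 and 0.43, did not pass. COL14A1, a collagen found on the surface of fibrils, was higher by 0.97 (adjusted p = 0.0317; 1 of 6 refits, without RA 2). Its 4 other probe sets, from 0.18 to 0.60, did not pass. EFEMP2, needed for elastic fibre assembly, was higher by 0.94 (adjusted p = 0.0482; 0 of 6 refits and 0.105 with the pairs as a block). The second EFEMP2 probe set was called at 1.1 (adjusted p = 0.00651). SPARC, a collagen-binding protein, was at 1.0 and did not pass (adjusted p = 0.0719; 0.000858 without the library labelled RA late HF 3).

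Of 15 basement membrane genes, 3 were higher (1.62% of all genes) and 0 lower. In the refits, 0 were higher without RA 1 or RV 2 and 1 without RA 2, RA 3 or RV 3. LAMA4, the laminin chain of vessels and muscle, read 11.17, 11.05 and 10.52 against 10.22, 10.08 and 9.79 (0.88, SE 0.21, adjusted p = 0.0323; 1 of 6 refits, without RA 3). LAMB2 was higher by 0.85 (adjusted p = 0.0437; 1 of 6 refits, without RV 1, 0.0780 with the pairs as a block) and SMOC2, a calcium-binding matrix protein, by 1.02 (adjusted p = 0.0169; 3 of 6 refits, failing without RA 1, RA 3 or RV 2). None of the 4 other LAMB2 probe sets (0.03 to 0.71) or the 2 other SMOC2 probe sets (0.51 and 0.88) passed. Of 22 proteases and inhibitors, 2 were higher, PRSS23 and SERPINF1. MMP2 and TIMP3 are not among them, but 1 other probe set of each was called higher. These were at 0.72 (adjusted p = 0.00414) and 0.65 (adjusted p = 0.0267). The further ones, at 0.15 for MMP2 and at 0.02 and 0.24 for TIMP3, were not called. PRSS23, a secreted serine protease, read 10.69, 10.34 and 10.93 in RA and 7.10, 6.55 and 6.36 in RV (3.98, SE 0.70, adjusted p = 0.00531) and both its other probe sets were called higher too, at 0.66 and 2.64. SERPINF1, a secreted serpin that acts on vessels, was higher by 0.82 (adjusted p = 0.0454; 0 of 6 refits, 0.0794 with the pairs as a block). ABI3BP, a matrix protein outside these lists, read 7.82, 7.39 and 6.87 against 5.15, 4.96 and 4.86, with RV near background (2.37, SE 0.40, adjusted p = 0.00424). Its second probe set was at 0.16 and did not pass.

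Markers of fibroblasts moved with the matrix genes, and several genes stand in both lists. Of 20 fibroblast markers tested, 4 were higher in RA (1.62% of all genes) and 0 lower. Without the library labelled RA late HF 3, 9 were higher (3.26% of all genes) and 0 lower. With the pairs as a block, 2 were higher (1.17% of all genes) and 0 lower. Whichever control array was left out, 1 or 2 were higher. The 4 called with all arrays are FBLN2, SMOC2, GSN, which severs actin filaments, and DPT, which binds collagen. GSN read 12.82, 12.86 and 12.87 against 12.04, 11.98 and 11.98 (0.85, adjusted p = 0.0189; 0 of 6 refits, 0.0538 with the pairs as a block). Without the library labelled RA late HF 3 the adjusted p of GSN was 0.00043. Its other probe sets were at 1.1, which was called, and at 0.56, which was not. DPT read 10.99, 11.16 and 10.97 against 9.89, 9.98 and 9.90 (1.12, adjusted p = 0.0457; 0 of 6 refits, 0.0948 with the pairs as a block). The mean log2 signal over the 20 markers lay between 9.04 and 9.20 in the RA arrays and between 8.28 and 8.43 in the RV arrays. The part of this shift in the matrix results was not tested.

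Among 20 markers of adipocytes, 16 did not pass, 3 passed as higher in RA and 1 as lower (1 and 0 with the pairs as a block). Their mean signal per array was 7.73 to 8.12 in RA and 7.04 to 7.38 in RV. Without RA 3, 0 of them were higher, and without RA 2, RV 1, RV 2 or RV 3, 1. SCD, which makes monounsaturated fatty acids, read 10.20, 11.13 and 11.12 against 9.37, 9.42 and 9.44 (1.41, SE 0.26, adjusted p = 0.00831; 5 of 6 refits, failing without RA 3). The second SCD probe set was at 0.18 and did not pass. RBP4, the carrier of retinol in blood, read 8.64, 9.53 and 9.0 against 7.07, 5.41 and 6.33 (2.79, SE 0.70, adjusted p = 0.0423; 0 of 6 refits, 0.0745 with the pairs as a block). Its second probe set was at 1.3 and did not pass. FASN, the fatty acid synthase, was higher by 0.58 (adjusted p = 0.0319; 1 of 6 refits, without RA 1, 0.0520 with the pairs as a block). The other FASN probe sets were at -0.05 and 0.02. AGPAT2, an acyltransferase of triglyceride synthesis, was lower by 0.61 in RA (adjusted p = 0.0482; 1 of 6 refits, without RV 3, 0.0750 with the pairs as a block). ADIPOQ, the adipocyte hormone adiponectin, read 9.81, 10.58 and 10.51 against 8.19, 6.39 and 7.10 without passing (3.07, adjusted p = 0.135); it was named after its values were seen. The part of adipose tissue in the RBP4 and SCD differences was not tested.

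Of 18 endothelial markers, 0 passed with all arrays or without the library labelled RA late HF 3, and the median was -0.07. Of 16 macrophage and monocyte markers, 0 passed in either fit. NPR3 is itself a marker of endocardium and was the 1 of 8 endocardial and lymphatic markers that passed, while RELN was at 0.94 (adjusted p = 0.0976). Of 51 cytosolic ribosomal protein genes, 0 passed with all arrays. Without the library labelled RA late HF 3, 9 were higher (3.26% of all genes). Their differences were small, with a median of 0.29; they were positive in 50 of 51, against 44.6% of all genes, and in 39 of 51 every RA array lay above every RV array (12.8% of all genes).

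**Figure D4:**
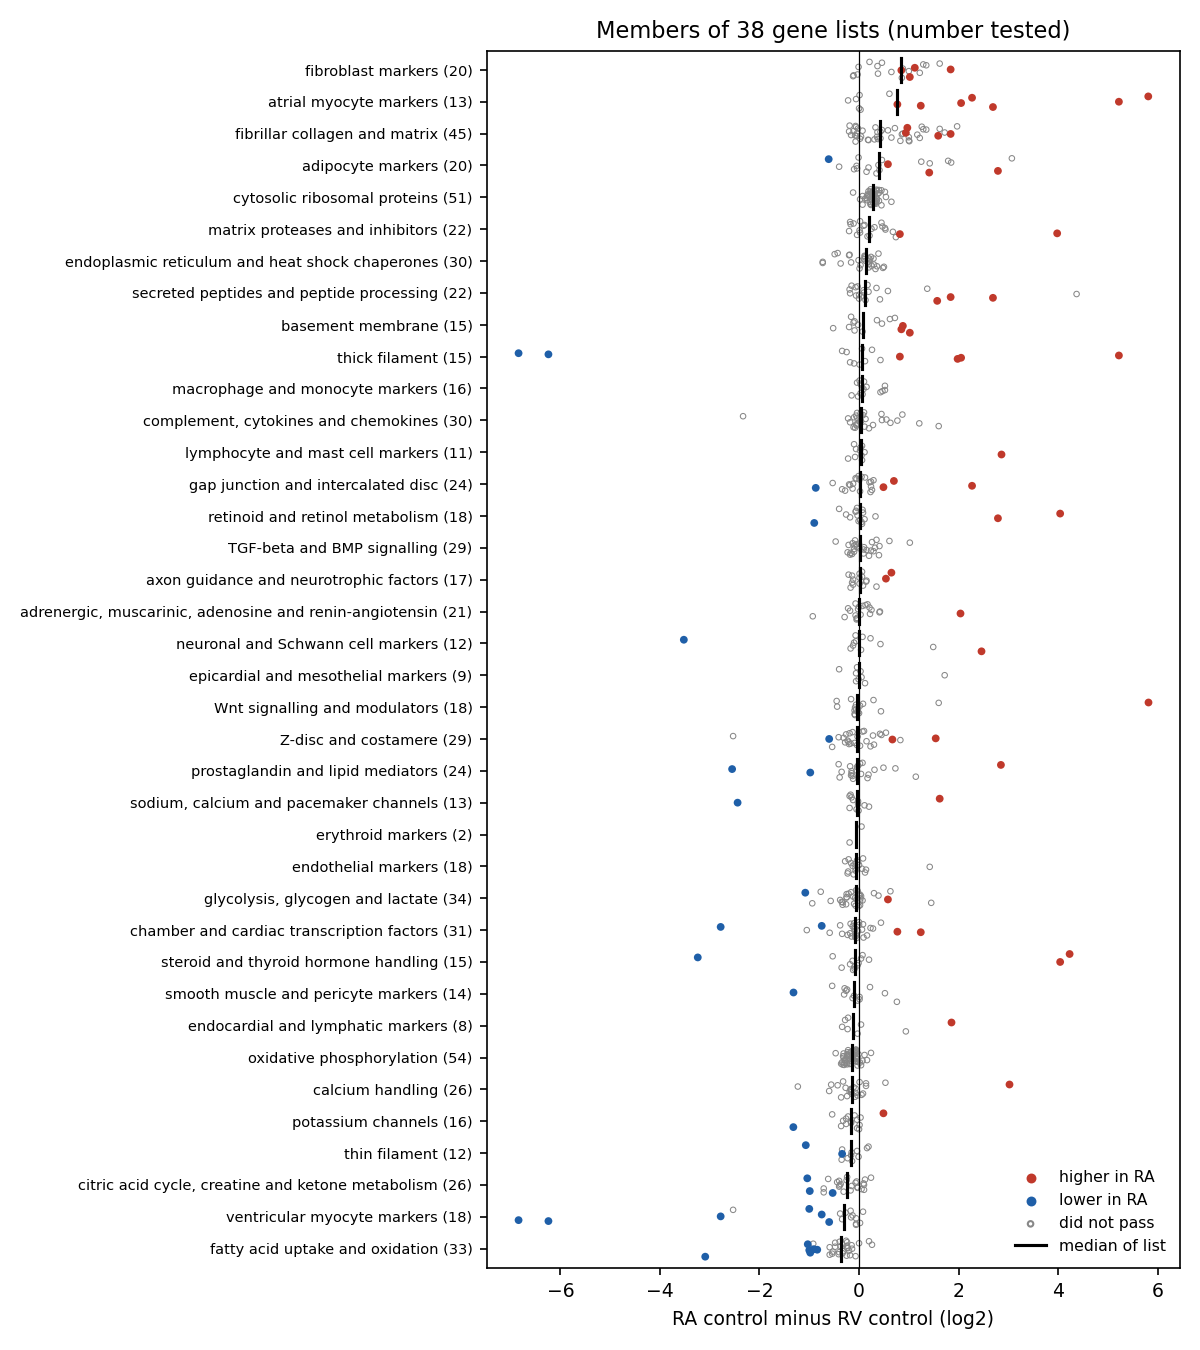
Difference between the control chambers (RA minus RV, log2, horizontal axis) of every tested member of 38 gene lists, ordered by the list median (black bar), with the number tested in parentheses. Filled red and blue points passed as higher or lower in RA and open points did not pass; fibroblast markers have the highest median at 0.85 and fatty acid genes the lowest at -0.37.

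Genes known from neurons went both ways. NEFL, the light neurofilament chain, was near background in RA at 5.69, 4.57 and 5.29 and read 8.30, 9.21 and 8.60 in RV (-3.52, SE 0.53, adjusted p = 0.00192, passing in all 6 refits). UCHL1, a ubiquitin hydrolase abundant in neurons, was higher in RA at 8.45, 9.29 and 8.95 against 5.98, 6.83 and 6.49 (2.46, SE 0.52, adjusted p = 0.0170; 2 of 6 refits, without RA 1 or RV 2). The second UCHL1 probe set was at 0.47 and did not pass. None of the other 10 neuronal and Schwann cell markers tested passed, and the mean over all 12 overlapped between the chambers (6.37 to 6.54 in RA and 6.29 to 6.48 in RV). NRTN, a neurotrophic ligand, was higher by 0.54 (adjusted p = 0.0238; 1 of 6 refits, without RA 1, 0.0560 with the pairs as a block), and EPHA4, an ephrin receptor, by 0.65 (adjusted p = 0.0423; 1 of 6 refits, without RV 3). PLPPR5, a membrane protein of the lipid phosphatase-related family, read 4.35, 4.94 and 4.96 in RA, near background, and 8.20, 8.05 and 8.24 in RV (-3.41, SE 0.75, adjusted p = 0.0214). Both other probe sets of PLPPR5 were called lower, but in the 6 refits it passed in 0 (0.0774 without RA 1). Without the library labelled RA late HF 3 its adjusted p was 8.38e-05.

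The remaining genes among the 15 largest in each direction have less settled roles in heart muscle. RABGAP1L, which regulates Rab GTPases of vesicle traffic, read 11.64, 11.79 and 11.68 in RA and 8.87, 9.29 and 8.97 in RV (2.66, SE 0.54, adjusted p = 0.0130; 3 of 6 refits, failing without RA 2, RA 3 or RV 1), and all 4 of its other probe sets were called higher. TMEM178A was higher by 2.32 (adjusted p = 0.0211; 1 of 6 refits, without RA 1). ECRG4, a secreted peptide precursor, read 5.77, 5.63 and 5.00 against 7.84, 8.12 and 7.79 (-2.45, SE 0.48, adjusted p = 0.0102; 4 of 6 refits, failing without RA 3 or RV 2). FHIT, a nucleotide hydrolase, read 6.21, 5.68 and 5.94 against 9.25, 9.56 and 8.75 (-3.24, SE 0.58, adjusted p = 0.00622). Its other probe sets disagreed, with 1 called lower at -1.67 and 1 at 0.04. OR51F23, annotated as an olfactory receptor, was lower in RA by 2.36 (adjusted p = 0.00655, all 6 refits), LOC612108 by 2.59 (adjusted p = 0.0152; 2 of 6 refits, without RA 3 or RV 3) and RIPOR2 by 2.07 (adjusted p = 0.0166; 2 of 6 refits, without RA 1 or RA 3). The second RIPOR2 probe set was at -0.51 and did not pass.

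The early HF arrays share no sample with the controls, so their means gave a second measurement of the chamber difference. Both differences took their SE from the same fit over all arrays, so the early calls are not independent of the control calls. Of the 178 genes higher in RA in controls, 170 were also higher in early HF, 81 of them past the threshold. Of the 118 lower in controls, 115 were also lower and 71 passed. No gene was called in opposite directions. In early HF, 615 of all genes (5.6%) were called, 330 (3.0%) higher and 285 (2.59%) lower. The RA and RV arrays did not overlap, in the same direction as in controls, for 136 of the 178 and 94 of the 118 genes (of all genes, 10.9% and 11.3%, and 22.2% in either direction).

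The genes higher in RA in controls had a median of 0.62 in early HF, and those lower had -0.74. The difference was smaller in early HF for 147 of the 178 and for 86 of the 118. These genes were called on the control arrays, and the smaller values were not tested as a loss. Tested directly in limma, the chamber difference of early HF minus that of controls passed in 0 of 10988 genes (566 at an unadjusted p under 0.05, 55 of them among the 296). The count was also 0 with the pairs as a block and without the library labelled RA late HF 3.

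DKK3 had a difference of 5.11 in early HF (adjusted p = 0.000735), GJA5 1.82 (adjusted p = 0.000139), IRX5 -3.11 (adjusted p = 0.00591) and PLA2G7 -2.39 (adjusted p = 0.00483). MYL2 read 9.73, 12.06 and 10.53 in the early RA arrays and 14.42, 14.19 and 14.41 in the early RV arrays, so that the chambers stayed apart by -3.57 (adjusted p = 0.0242). FN1 had a larger value in early HF, 3.03 (adjusted p = 0.000735), and RA read 12.50, 11.49 and 12.55 there.

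For several genes called in controls the early difference did not pass. NEFL read 6.01, 4.77 and 5.35 in early RA and 4.93, 5.49 and 4.10 in early RV, so that the RV signal seen in controls was near background (0.54, adjusted p = 0.665). The change of its chamber difference had an unadjusted p of 5.63e-05 and an adjusted p of 0.226. ACTA1 read 14.14, 14.10 and 14.14 in early RA and 14.35, 14.13 and 14.26 in early RV (-0.12, adjusted p = 0.764), close to the bright end of the scale in both chambers. FABP3 was at 0.09 (adjusted p = 0.899) and CXADR at -0.03 (adjusted p = 0.949) in early HF. HPGDS was at 1.29 (adjusted p = 0.102), RBP4 at 0.88 (adjusted p = 0.563) and HSD11B1 at -0.60 (adjusted p = 0.759). For none of these did the change of the chamber difference pass.

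**Figure D5:**
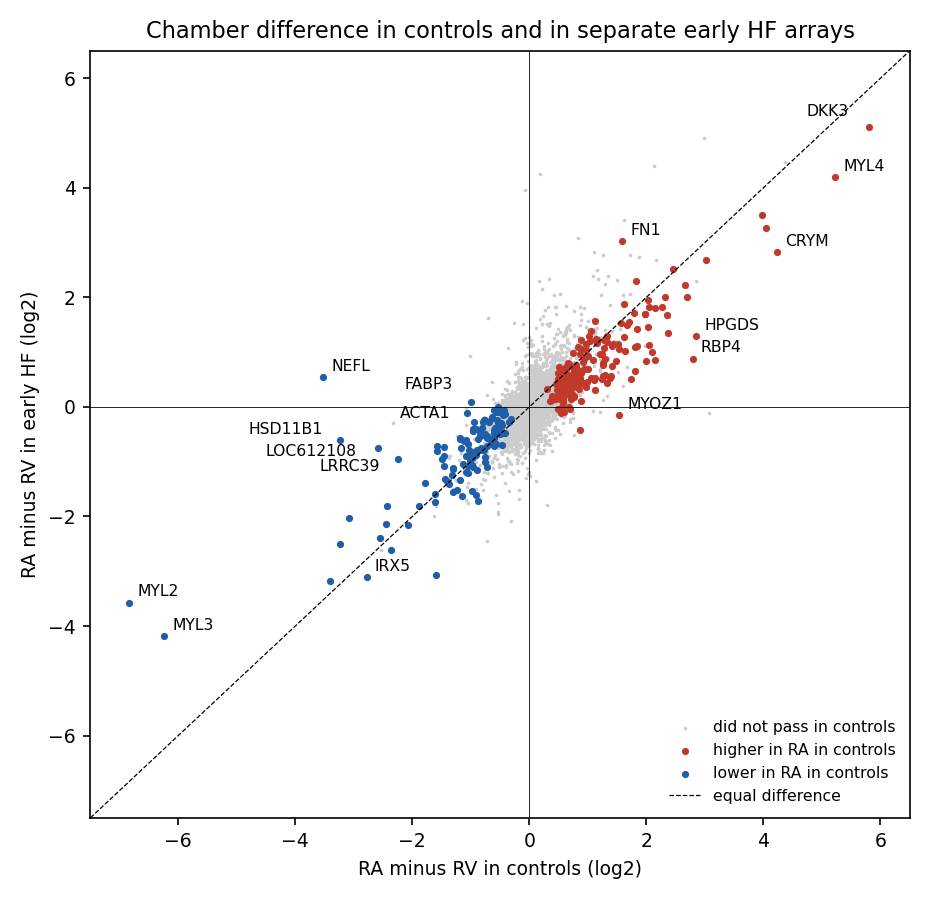
Chamber difference (RA minus RV, log2) in the early HF arrays (vertical axis) against that in the control arrays (horizontal axis), 1 point per gene; the 2 axes share no sample. Red and blue points are the 178 and 118 genes called in controls, and the dashed line marks equal values; MYL2 (-6.84 and -3.57) lies nearer to 0 in early HF, and NEFL and MYOZ1 lie across 0.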

How the data were processed

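RNA of 18 samples, 3 per chamber and condition, was hybridised to Affymetrix Canine_2 arrays. The deposited values are log2 signals per probe set; the submitters' processing notes name MAS5 with no version, and the array medians lay between 5.65 and 5.75. Of 43035 probe sets, 111 controls were left out; 29254 had a single gene symbol, 439 several and 13231 none. The 40% with the lowest mean signal were left out (limit 5.31), which left 25752. A gene was read from its brightest single-symbol probe set. limma 3.58.1 in R 4.3.3 (lmFit, eBayes with a trend) fitted 6 group means to 18 arrays (12 residual degrees of freedom), with Benjamini-Hochberg adjustment over probe sets; it was checked on simulated data. The number of arrays limits the precision.

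Arrays of RA and RV with the same replicate number deviated together in controls (correlations 0.36, 0.24 and 0.42) and early HF (0.17, 0.26 and 0.15). The labels name no shared animal. Late HF numbers did not pair (0.05, -0.42 and 0.15), so the block held the control and early pairs only.

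Gene lists (1076 genes, 933 on the array, 766 tested) and the comparison itself were chosen with earlier results of these data known. Genes named are the 15 with the largest difference in each direction among those that passed without overlap, up to 5 members of each list with the smallest p, and a fixed set of chamber and rhythm genes; exceptions are marked. MYH6, NPPA, SLN and HEY2 had no probe set of their own, and some genes are not reported here. Other fits changed the samples, block, filter, scaling, prior, array weights and probe set rule.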

Additional observations from a re-analysis of the deposited data

Results flagged for a closer look

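A probe set with no gene symbol differed between conditions in its chamber difference. Its signal was 6.18, 6.36 and 6.59 in RA controls and 5.32, 5.37 and 5.23 in RV controls, a difference of 1.07. In early HF it was 5.43, 5.42 and 5.41 in RA and 5.5, 5.39 and 5.40 in RV, a difference of -0.01. Early HF minus control was -1.08 (SE 0.14, adjusted p = 0.0258 in limma with Benjamini-Hochberg adjustment), and the early signals lie close to the filter limit of 5.31.

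MYOZ1 was higher in RA in each numbered pair of controls (1.54) and lower in RA in each pair of early HF, with early RA at 8.33, 8.64 and 8.06 and early RV at 8.37, 8.68 and 8.43. The early difference was -0.15. The opposite signs are a description of the pairs and were not tested by that comparison; in limma the change of the chamber difference had an unadjusted p of 0.00331 and an adjusted p of 0.659.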

How the results depend on the processing

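The count of genes called, 296 (748 probe sets), moved most with the arrays that set the spread. It was 590 (1458 probe sets) without the library labelled RA late HF 3, 878 (2162) with the 6 control arrays alone and 1100 (2605) with array weights. All 296 genes were also called without that library, and 289 with the controls alone. With 1 control array left out, and so fewer samples, and with that library kept, 96 to 170 genes (251 to 438 probe sets) were called.

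With the chamber pairs as a replicate block, 228 genes (592 probe sets) were called, 197 of them among the 296. With the block and without the library labelled RA late HF 3, a fit chosen after seeing the data, there were 690 (1716). Beyond the genes and lists so marked in the report, the block ended no call of a named gene. Filter, scaling and prior settings gave 231 to 426 genes. The other probe set rules gave 244 (cross-hybridising probe sets left out) and 286 (median of a gene's probe sets).

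Of 76 named genes that passed, 27 kept direction and call under every alternative tried, and 47 under all that leave out no array. The sign turned for VDAC1, at 0.08 (adjusted p = 0.935) with cross-hybridising probe sets left out, and for FASN, at -0.05 (adjusted p = 0.889) with the median of its probe sets. The cause was not tested. Near background here means close to the filter limit of 5.31 or below it, which is not a measured background. Differences of genes near it in 1 chamber may be lower bounds, and signals near the top of the scale may be compressed.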

Other observations

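Among signalling genes, none of 29 TGF-beta and BMP genes passed with all arrays, and 1 was higher in RA without the library labelled RA late HF 3. That gene was BMP5, a bone morphogenetic protein, at 6.90, 7.94 and 7.33 in RA controls and 6.43, 6.46 and 6.22 in RV controls (1.02, adjusted p = 0.0945 with all arrays and 0.0188 without that library, limma).

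Of 30 complement, cytokine and chemokine genes, 0 passed with all arrays and 2 were higher in RA without that library. CXCL12, a chemokine of stromal cells, read 9.24, 9.65 and 9.82 in RA and 8.81, 8.96 and 9.05 in RV (0.63, adjusted p = 0.0601; 0.0262 without the library). C6, a component of the membrane attack complex, was near background in RA at 4.30, 4.70 and 4.01 and read 7.40, 7.14 and 5.45 in RV, and did not pass in either fit (-2.33, adjusted p = 0.111 and 0.0672).

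Of 30 chaperones, 0 passed in either fit, with HSPB7, a small heat shock protein of the heart, at -0.73 (adjusted p = 0.0902). Of 9 epicardial and mesothelial markers, 0 passed with all arrays. EFEMP1, a matrix protein among them, had 8.05, 7.86 and 8.0 in RA and 6.56, 5.97 and 6.22 in RV (1.72, adjusted p = 0.0763; 0.00221 without the library labelled RA late HF 3).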
